A study of Mus musculus with 6 samples.

Results

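Transcripts of the immunoglobulin loci were examined in PDPN+PDGFRα+ cells sorted from MO5 melanomas, which grow from B16-OVA cells. The genes were taken by name, as all rows named Ighv, Igkv or Iglv, the heavy chain constant genes Ighm, Ighd, Ighg1, Ighg2b, Ighg2c, Ighg3 and Igha, Igkc, Iglc1 to Iglc3, and Jchain, with at least 1 read over all libraries. The genes were thus selected on their names and on their reads summed over all libraries, a rule that uses no difference between the groups. This left 146 of the 53801 genes in the table, and 84 further rows with such names had 0 reads in every library. The study has 3 libraries of ADAM12-DTR mice, called DTR, and 3 of littermates without the transgene (Ctrl), all adult C57BL/6 mice bearing MO5 tumors and all given diphtheria toxin. In ADAM12-DTR mice the receptor for the toxin is expressed from a bacterial artificial chromosome under the Adam12 promoter, so that the toxin kills cells that use this promoter. The sorting gate kept PDPN+PDGFRα+ cells and left out CD45+ leukocytes, CD31+ endothelial cells, dead cells and doublets. The sources used here do not say whether each library came from a separate mouse, so p-values measure the spread between these libraries, which may be partly technical.

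An antibody is built from heavy chains and light chains. In each B cell a heavy chain V gene and a kappa or lambda V gene are joined by recombination to shorter segments and transcribed with a constant gene, and the heavy chain constant gene sets the isotype. Igha encodes the heavy chain of IgA, Ighm that of IgM, Ighd that of IgD and the Ighg genes those of IgG. Plasma cells are the antibody-secreting end stage of the B lineage, and Jchain encodes the joining chain that links IgA or IgM units into polymers. A clone keeps its V genes, so V gene reads can reflect which B lineage clones gave RNA to a library.

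The reads on V genes were few and the genes are close relatives, so the sequences on which the values turn are shown, as the last 300 bases of the last coding exon of each gene in the GRCm38 build with the GENCODE M21 annotation. Ighv1-81 (chr12:115920279-115920578, minus strand) is shown because it held the most heavy chain V reads in all 6 libraries. Igkv1-110 (chr6:68270968-68271267, plus strand) and Igkv1-117 (chr6:68121528-68121827, plus strand) were the leading kappa V genes, and capitals mark the bases at which they differ, 10 of 313 over the exons. These 2 exons are 96.81% identical.
Ighv1-81: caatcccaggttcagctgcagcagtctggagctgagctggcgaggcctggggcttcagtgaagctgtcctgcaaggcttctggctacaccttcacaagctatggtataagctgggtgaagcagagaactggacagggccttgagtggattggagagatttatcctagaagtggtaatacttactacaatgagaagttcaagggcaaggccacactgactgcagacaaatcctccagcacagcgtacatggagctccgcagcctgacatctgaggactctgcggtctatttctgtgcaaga
Igkv1-110: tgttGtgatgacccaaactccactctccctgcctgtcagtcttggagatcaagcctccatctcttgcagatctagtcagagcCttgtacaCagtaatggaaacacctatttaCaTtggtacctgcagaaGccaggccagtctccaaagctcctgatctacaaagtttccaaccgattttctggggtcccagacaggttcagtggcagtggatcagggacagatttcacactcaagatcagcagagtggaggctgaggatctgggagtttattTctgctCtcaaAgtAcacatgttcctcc
Igkv1-117: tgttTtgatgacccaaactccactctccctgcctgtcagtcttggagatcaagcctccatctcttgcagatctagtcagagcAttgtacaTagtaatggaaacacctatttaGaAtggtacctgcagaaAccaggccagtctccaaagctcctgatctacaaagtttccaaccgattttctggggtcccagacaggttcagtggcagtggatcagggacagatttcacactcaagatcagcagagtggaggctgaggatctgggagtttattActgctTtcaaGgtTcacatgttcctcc
Cut into 50-base words, the annotated transcripts of Igkv1-110 share 50.9% of them with another annotated gene, nearly all with Igkv1-117, and those of Igkv1-117 share 49.9%. For Ighv1-81 the share was 11.6%. Reads on the kappa pair are therefore uncertain between the 2 genes. Over all 146 genes the median share was 22.2%, 26 genes shared no such word and 17 shared at least 50%.

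Iglv1 (chr16:19085017-19085316, minus strand) and Iglc1 (chr16:19061755-19062054, minus strand) are shown because they had the lowest p-values of the immunoglobulin genes tested. Iglv1 is set beside Iglv2 (chr16:19260401-19260700, minus strand), which differs in 11 of 305 aligned columns of the exons, and Iglc1 beside Iglc3 (chr16:19065368-19065667, minus strand), which differs in 80 of 319. Capitals mark the differing bases among those shown.
Iglv1: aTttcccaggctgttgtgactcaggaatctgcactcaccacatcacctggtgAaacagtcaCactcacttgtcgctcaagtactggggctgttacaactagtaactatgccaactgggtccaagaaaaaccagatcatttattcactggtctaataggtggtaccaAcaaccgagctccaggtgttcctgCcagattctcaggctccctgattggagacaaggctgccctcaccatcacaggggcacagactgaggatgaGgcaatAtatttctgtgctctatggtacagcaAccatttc
Iglv2: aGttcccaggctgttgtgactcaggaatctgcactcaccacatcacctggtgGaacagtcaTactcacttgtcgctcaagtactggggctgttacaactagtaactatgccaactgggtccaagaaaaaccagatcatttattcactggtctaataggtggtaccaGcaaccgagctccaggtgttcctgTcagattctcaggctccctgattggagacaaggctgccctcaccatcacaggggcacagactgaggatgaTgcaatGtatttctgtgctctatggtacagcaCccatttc
Iglc1: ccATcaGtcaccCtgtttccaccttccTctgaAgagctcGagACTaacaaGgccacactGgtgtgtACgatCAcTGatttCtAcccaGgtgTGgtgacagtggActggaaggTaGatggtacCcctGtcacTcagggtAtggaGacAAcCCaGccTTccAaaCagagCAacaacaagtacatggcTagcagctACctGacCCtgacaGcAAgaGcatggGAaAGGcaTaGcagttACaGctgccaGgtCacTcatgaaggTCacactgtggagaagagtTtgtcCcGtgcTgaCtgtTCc
Iglc3: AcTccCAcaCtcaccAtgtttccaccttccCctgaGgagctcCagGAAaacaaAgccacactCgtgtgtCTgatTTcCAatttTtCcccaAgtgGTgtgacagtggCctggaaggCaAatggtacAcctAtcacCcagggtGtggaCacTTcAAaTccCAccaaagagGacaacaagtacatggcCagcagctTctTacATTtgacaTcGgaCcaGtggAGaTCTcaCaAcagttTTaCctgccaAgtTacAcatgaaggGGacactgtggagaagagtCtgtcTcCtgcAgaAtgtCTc
The 2 lambda V exons are 96.39% identical, and 22.2% of the 50-base words of Iglv1 also occur in Iglv2, which was listed at 0 reads in all 6 libraries. Iglc1 and Iglc3 are only 74.92% identical, and Iglc1 shared 0% of its 50-base words with other annotated genes.

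The libraries held between 22339635 and 34271929 reads on genes, and 3 reads, the floor used here, correspond to between 0.0875 and 0.134 CPM (counts scaled to a library's total). The number of reads sets the precision of every value below, and intervals and floors cover counting error only. Melanoma and fibroblast markers overlapped between the groups. Melanoma markers summed to between 14446 and 17605 CPM and fibroblast markers to between 4990 and 14212 CPM over the 6 libraries. Ptprc, which encodes the CD45 antigen that the gate excluded, was nevertheless read in all libraries, at 399, 1186 and 771 reads in Ctrl and 1192, 933 and 834 in DTR. Ctrl 2 stood apart by several lists of leukocyte genes. It had the highest sum of mature B cell genes, 38.8 CPM against 21.9 to 28.7 CPM in the other libraries. It also had the highest sum of T cell markers, 39.9 CPM against 6.46 to 19.6 CPM, and of macrophage markers, 147.9 CPM against 101.9 to 113.8 CPM.

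In total, 2741, 4022 and 11688 reads lay on the 146 genes in Ctrl 1, 2 and 3, and 9392, 15367 and 6986 in DTR 1, 2 and 3. These are 109, 162 and 424 CPM in Ctrl and 274, 500 and 313 CPM in DTR. Ctrl 1 and 2 were the lowest libraries, but Ctrl 3 lay above DTR 1 and 3, so the groups overlapped. Ctrl averaged 232 ± 169 CPM (SD, n = 3) and DTR 362 ± 121 CPM (SD, n = 3), a ratio of 1.56, and the highest library had 4.58 times the CPM of the lowest. The log2 ratio of the means was 0.64, and it was 0.31 without Ctrl 1, 0.34 without DTR 2, 0.44 without Ctrl 2 and 1.42 without Ctrl 3. In bulk RNA, fewer B lineage cells and less immunoglobulin RNA per cell cannot be told apart.

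Only 28 of the 146 genes passed edgeR's expression filter, which asks for about 10 reads in at least 3 libraries. These were 11 heavy V, 9 kappa V and 1 lambda V gene, 4 heavy and 2 lambda constant genes and Jchain. The filter thus left out well-read genes whose reads lay in few libraries, such as Ighv14-3 with 395 reads in 2 libraries, while Iglc3 passed with 93 reads over all 6. With edgeR (quasi-likelihood test, Benjamini-Hochberg adjustment over all 15133 genes tested), 0 of the 28 had an adjusted p under 0.05, where 0.0% of all tested genes did. The lowest adjusted p among the 28 was 0.602. Without adjustment, 2 of them were under 0.05, Iglv1 and Iglc1, both higher in DTR, beside 7.92% of all tested genes in either direction and 3.81% that were higher. The fold change was above 0 for 19 and below 0 for 9 of the 28, and 49.6% of all tested genes were above 0. The median log2 fold change of the 28 was 0.74 against -0.0029 over all tested genes, and for the same genes it ran from 0.59 without Ctrl 1 to 1.55 without Ctrl 3, with 0.73 without Ctrl 2. The sign of the fold change turned for 10 of the 28 when a library was left out. Every DTR library was higher than every Ctrl library for 3 of them, Iglv1, Iglc1 and Igkv14-111, and lower for 0, where 7.18% of all tested genes were higher and 6.35% lower in this way. The filter shaped this count. Igkv14-111, with 0, 30 and 0 reads in Ctrl, passed it through its DTR libraries. Ighv3-6, Igkv6-25 and Ighv14-2, read in all 3 Ctrl libraries and at 0 in DTR, did not pass. The counts and the median above thus hold for the filtered genes alone.

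**Figure D1:**
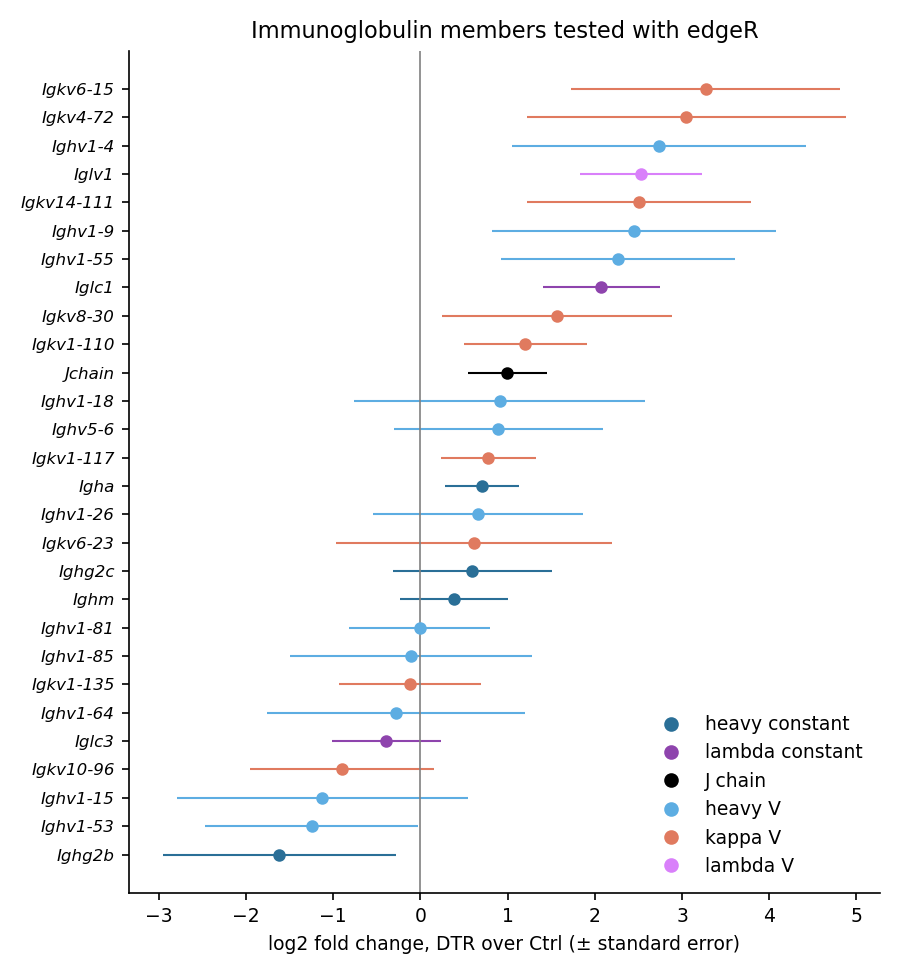
Log2 fold change of DTR over Ctrl (horizontal axis) for the 28 immunoglobulin genes that edgeR tested, ordered by value, with bars of 1 standard error and colours by class. Iglv1 and Iglc1 have narrow bars well above 0, whereas most V genes have standard errors above 1.

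Of the constant genes, Igha was by far the most read. Igha lies on chromosome 12 from 113254830 to 113260236 on the minus strand and held 1274, 1302 and 4083 reads in Ctrl and 3431, 6155 and 2509 in DTR. Per library total this was 50.8, 52.3 and 148 CPM in Ctrl and 100.1, 200.2 and 112 CPM in DTR. Ctrl 1 and 2 were below all other libraries and Ctrl 3 was exceeded by DTR 2 alone. The log2 fold change of Igha was 0.71 (standard error, SE, 0.424, edgeR adjusted p = 0.675), and it was 0.48 without Ctrl 2, 0.33 without DTR 2 and 1.36 without Ctrl 3. Per kilobase of exon Igha ranked between 317 and 1903 among the 17074 genes ranked, against 18 to 90 for the collagen gene Col1a1 in the same libraries.

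Jchain, on chromosome 5 from 88519809 to 88527891, held 360, 353 and 1241 reads in Ctrl and 1196, 2167 and 937 in DTR. Its levels were 14.3, 14.2 and 45.0 CPM in Ctrl and 34.9, 70.5 and 41.9 CPM in DTR, and the libraries stood nearly in the order they had for Igha, with Ctrl 3 again among the DTR libraries. The log2 fold change of Jchain was 0.99 (SE 0.453, edgeR adjusted p = 0.630), and it was 0.74 without Ctrl 2, 0.64 without DTR 2 and 1.73 without Ctrl 3. Jchain had 0.283, 0.271 and 0.304 reads per Igha read in Ctrl and 0.349, 0.352 and 0.373 in DTR. Each DTR ratio was above each Ctrl ratio, but this ratio was chosen after its values were seen and was not tested. Jchain ranked between 1183 and 5762 among the 17074 genes per kilobase.

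Ighm was at 44, 317 and 367 reads in Ctrl and 279, 353 and 392 in DTR. Ctrl 1 was the low library, with 1.75 CPM against 8.14 to 17.5 CPM elsewhere. Its log2 fold change of 0.39 (SE 0.621) became -0.10 without Ctrl 1 and 0.73 without Ctrl 2. Ighd, which mature B cells express beside Ighm and plasma cells lose, had 17, 42 and 0 reads in Ctrl and 5, 3 and 0 in DTR, and was highest in Ctrl 2.

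The IgG genes differed widely between libraries of the same group. Ighg2c held 29, 235 and 947 reads in Ctrl and 1388, 399 and 316 in DTR, with the extremes at Ctrl 1 and DTR 1. Its log2 fold change was 0.60 (SE 0.913) and turned to -0.13 without DTR 1, and it was 0.38 without Ctrl 2 and 2.03 without Ctrl 3. Ighg2b held 69, 269 and 679 reads in Ctrl and 8, 369 and 4 in DTR, so that DTR 1 and 3 were nearly without it while DTR 2 exceeded 2 of the Ctrl libraries. Its log2 fold change of -1.62 (SE 1.33) was the lowest of the 28 genes and ran from -5.89 without DTR 2 to -0.76 without Ctrl 3, with -1.69 without Ctrl 2. Ighg1 and Ighg3 were read only in Ctrl 2 and DTR 2, at 75 and 129 reads for Ighg1 and 61 and 6 for Ighg3, and were at 0 in the other 4 libraries. Among these paralogs 5.49% of the 50-base words of Ighg2c and 4.15% of those of Ighg2b also occur in another annotated gene. For each of Ighm, Ighg2c and Ighg2b the adjusted p was at least 0.592 over the alternatives of edgeR and DESeq2 in which it was tested.

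**Figure D2:**
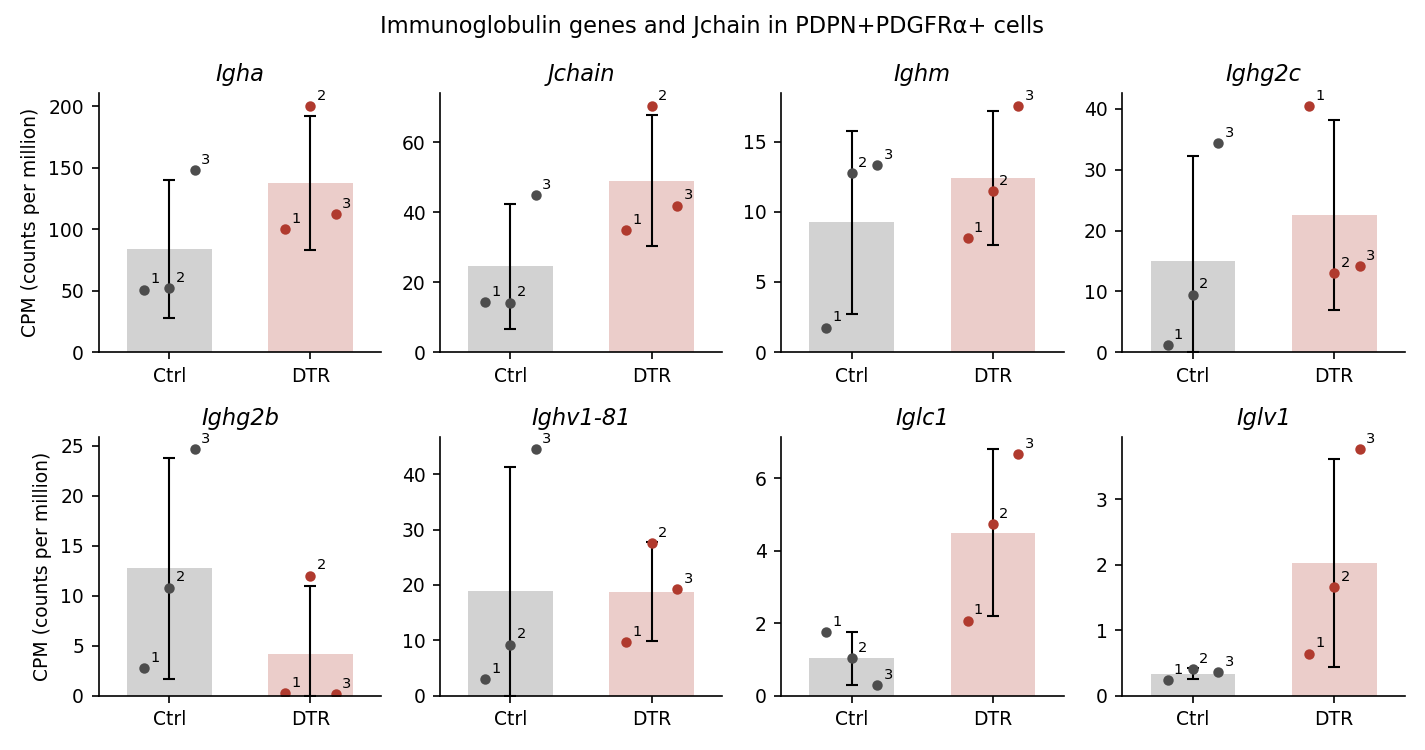
CPM (vertical axes, from 0, scaled per gene) of 8 immunoglobulin genes in Ctrl and DTR. Points are libraries, numbered by replicate, bars are means and error bars are SD with n = 3, stopped at 0 where they would pass below it. Ctrl 3 lies among the DTR libraries for Igha and Jchain, while the groups separate for Iglc1 and Iglv1.

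By isotype, Igha took 88.9%, 56.6% and 67.2% of the heavy chain constant reads in Ctrl and 67.1%, 83.0% and 77.9% in DTR. Exact 95% binomial intervals ran from 54.5% to 58.6% for Ctrl 2, the lowest, and from 87.2% to 90.5% for Ctrl 1, the highest. These 2 intervals, which cover counting error only, did not overlap although both libraries were Ctrl. Ctrl averaged 70.9 ± 16.5% (SD, n = 3) and DTR 76.0 ± 8.11% (SD, n = 3). Corrected for exon length, Igha still took the largest share in every library, 85.7%, 48.4% and 56.8% in Ctrl and 51.7%, 77.2% and 67.7% in DTR. The 4 IgG genes together took 6.84%, 27.8% and 26.8% in Ctrl and 27.3%, 12.2% and 9.93% in DTR. Ighm took 3.07%, 13.8% and 6.04% in Ctrl and 5.46%, 4.76% and 12.2% in DTR.

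Within IgG the libraries split differently again. Ighg2c made up 29.6%, 36.7% and 58.2% of IgG reads in Ctrl and 99.4%, 44.2% and 98.8% in DTR. DTR 1 and 3 thus held almost no IgG transcript other than Ighg2c, whereas DTR 2 resembled the Ctrl libraries, and the groups overlapped.

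**Figure D3:**
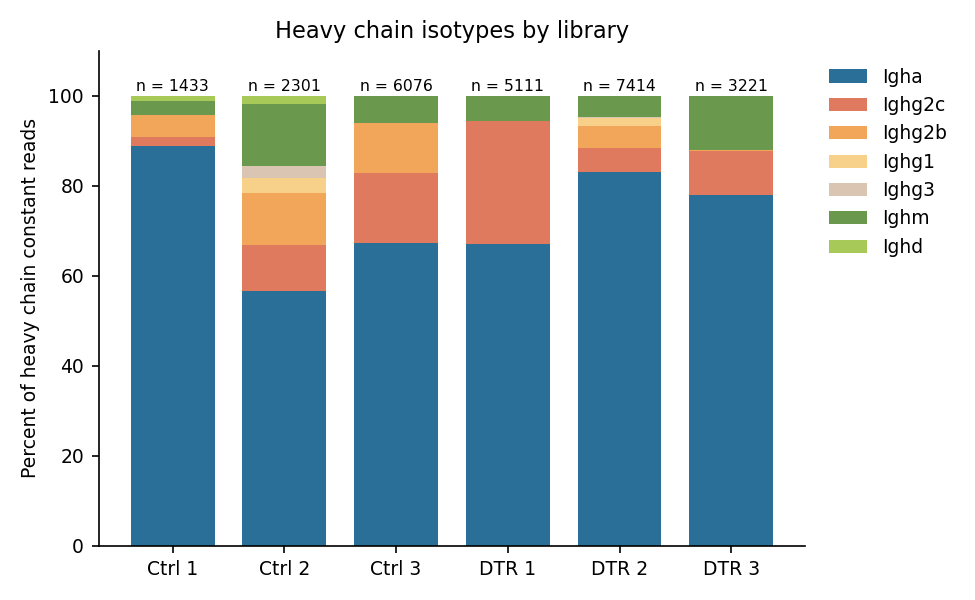
Percent of heavy chain constant reads (vertical axis) on each of the 7 heavy chain constant genes, as 1 stacked bar per library, with the number of reads above it. Igha is the largest part of every bar, from 56.6% in Ctrl 2 to 88.9% in Ctrl 1, and Ighg2b is nearly missing from DTR 1 and DTR 3.

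For the light chains, kappa V genes outnumbered lambda V genes in every library. Reads on kappa V genes were 510, 654 and 1893 in Ctrl and 1496, 3241 and 1482 in DTR, or 38.4 ± 26.4 CPM (SD, n = 3) and 71.8 ± 31.2 CPM (SD, n = 3). Igkc, the kappa constant gene, was listed at 0 in all 6 libraries beside these reads, so the kappa constant level cannot be described and kappa is given by its V genes alone. Lambda V genes made up 1.16%, 1.51% and 0.525% of light chain V reads in Ctrl and 1.45%, 1.55% and 5.48% in DTR. DTR 3 stood out with an exact 95% binomial interval from 4.41% to 6.73%.

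Iglv3, the only other lambda V gene with reads, had 2 reads, both in DTR 3. Iglv1, the main lambda V gene of mice, was at 6, 10 and 10 reads in Ctrl and 22, 51 and 84 in DTR. Every DTR library was above every Ctrl library, and Ctrl averaged 0.335 ± 0.0850 CPM (SD, n = 3) where DTR averaged 2.02 ± 1.59 CPM (SD, n = 3). Its log2 fold change was 2.53 (SE 0.701, unadjusted p = 0.00696, edgeR adjusted p = 0.602), and it stayed between 1.74 and 2.98 with each library left out in turn.

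Iglc1, a lambda constant gene to which Iglv1 can be joined, was at 44, 26 and 8 reads in Ctrl and 71, 146 and 149 in DTR. Again the groups did not overlap, and Ctrl averaged 1.03 ± 0.732 CPM (SD, n = 3) where DTR averaged 4.50 ± 2.31 CPM (SD, n = 3). The log2 fold change of Iglc1 was 2.08 (SE 0.671, unadjusted p = 0.0150, edgeR adjusted p = 0.602), between 1.62 and 2.71 with each library left out. For both genes the exact permutation test over the libraries gave p = 0.1, the smallest that 3 against 3 allow, and DESeq2's Wald test gave an adjusted p of 0.159. The other lambda constant genes did not follow. Iglc3 had 8, 18 and 23 reads in Ctrl and 16, 23 and 5 in DTR, for a log2 fold change of -0.39 (SE 0.630), and Iglc2 had 20, 3 and 4 against 6, 1 and 8. Iglc1 made up 61.1%, 55.3% and 22.9% of lambda constant reads in Ctrl and 76.3%, 85.9% and 92.0% in DTR. DTR 3, the library with most Iglv1 and Iglc1, also had the highest sum of the 6 endothelial markers, 80.1 CPM against 11.1 to 27.5 CPM in the other libraries. Tek alone gave 63.8 CPM of it and Kdr 12.2 CPM, whereas Pecam1 at 4.07 CPM lay within the range of the other libraries and Cdh5, Tie1 and Emcn were at 0 in DTR 3. The part of these genes in the lambda values was not tested.

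The V genes with reads overlapped only in part between libraries. Of 65 heavy V genes, 19 were read in 1 library only and 1, Ighv1-81, in all 6. Of 68 kappa V genes, 30 were read in 1 library only and 3, Igkv1-110, Igkv1-117 and Igkv1-135, in all 6. Ighv1-81 held 37.6% of all heavy V reads and the 3 shared kappa genes 49.5% of all kappa V reads. Among genes with at least 50 reads, 9 of 33 heavy V genes and 8 of 31 kappa V genes had at least 90% of their reads in 1 library. Of the genes read in 1 library, 6 heavy V and 6 kappa V genes had 1 read in all and could not be seen in another. Taking genes with at least 3 reads in a group, 33 heavy V genes were seen in both groups, which is 73.3% of those in Ctrl and 71.7% of those in DTR. The same count for kappa V genes was 26, or 61.9% of those in Ctrl and 57.8% of those in DTR.

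**Figure D4:**
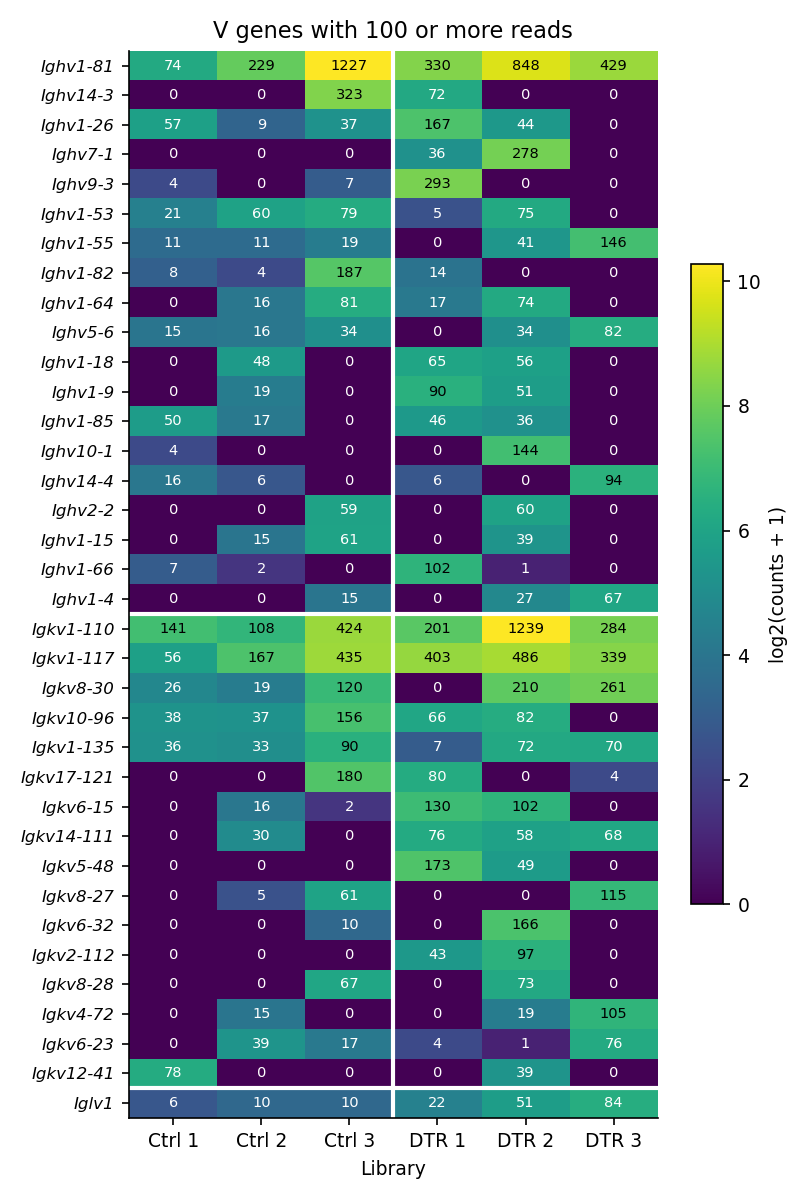
Reads on the 36 V genes with at least 100 reads (rows, heavy V above kappa V above lambda V, by total) in the 6 libraries (columns), with the count printed and the colour on a log2(counts + 1) scale. Ighv1-81, Igkv1-110, Igkv1-117, Igkv1-135 and Iglv1 have reads in all 6 libraries, and 81 of the 216 cells are at 0.

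Ighv1-81 held 74, 229 and 1227 reads in Ctrl and 330, 848 and 429 in DTR. It took 20.6%, 34.9% and 50.4% of heavy V reads in Ctrl and 22.4%, 36.5% and 39.1% in DTR, the largest share in each library, and the groups overlapped. Its log2 fold change was -0.0039 (SE 0.808), and it moved up to 1.57 without Ctrl 3 and 0.32 without DTR 1, and down to -0.51 without Ctrl 1, -0.39 without DTR 2 and -0.32 without Ctrl 2. The next heavy V gene differed between libraries. It was Ighv1-26 in Ctrl 1, Ighv1-53 in Ctrl 2, Ighv14-3 in Ctrl 3, Ighv9-3 in DTR 1, Ighv7-1 in DTR 2 and Ighv1-55 in DTR 3. Ighv9-3 had 293 of its 304 reads in DTR 1, and Ighv14-3 had 323 of its 395 reads in Ctrl 3.

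Among the kappa V genes, Igkv1-110 held 141, 108 and 424 reads in Ctrl and 201, 1239 and 284 in DTR, and Igkv1-117 held 56, 167 and 435 in Ctrl and 403, 486 and 339 in DTR. Igkv1-110 led in Ctrl 1 and DTR 2 and Igkv1-117 in the other 4 libraries. Their log2 fold changes were 1.21 (SE 0.705) and 0.78 (SE 0.545), and both depended on single libraries. That of Igkv1-110 was 0.12 without DTR 2, 0.91 without Ctrl 2 and 1.92 without Ctrl 3, and that of Igkv1-117 was 0.34 without Ctrl 1, 0.68 without Ctrl 2 and 1.61 without Ctrl 3. Igkv8-30 followed with 26, 19 and 120 reads in Ctrl and 0, 210 and 261 in DTR, Igkv10-96 with 38, 37 and 156 against 66, 82 and 0, and Igkv1-135 with 36, 33 and 90 against 7, 72 and 70. None of these 5 genes separated the groups. Igkv14-111 did, with 0, 30 and 0 reads in Ctrl and 76, 58 and 68 in DTR, at a log2 fold change of 2.51 (SE 1.28, edgeR adjusted p = 0.650). All its Ctrl reads were in Ctrl 2, at 1.21 CPM against 1.89 to 3.04 CPM in DTR, and with all libraries the ratio of the means was 5.93. Without Ctrl 2 it was at least 40.6-fold higher in DTR against a floor of 3 reads over the other Ctrl libraries. That bound covers counting error only and not the spread between libraries. The highest log2 fold change of the 28 tested genes was 3.27 (SE 1.54) for Igkv6-15, which had 0, 16 and 2 reads in Ctrl and 130, 102 and 0 in DTR, so that DTR 3 was as low as Ctrl 1. Without Ctrl 2 the 2 reads left in Ctrl gave a ratio of 69.9, with an exact counting interval from 19.1 to 581.

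Among genes with more than 3 reads, 21 had all Ctrl libraries at 0 and 24 had all DTR libraries at 0. Of the 21 genes without reads in Ctrl, 17 were read in 1 DTR library, 4 in 2 and 0 in all 3. Of the 24 without reads in DTR, 15 were read in 1 Ctrl library, 6 in 2 and 3 in all 3. Ighv7-1, with 36, 278 and 0 reads in DTR, was at least 92.9-fold higher in DTR against a floor of 3 reads over the Ctrl group, although DTR 3 was also at 0. Ighv3-6 had 9, 39 and 23 reads in Ctrl and was at least 26.7-fold lower in DTR. Igkv6-25 had 7, 7 and 43 reads in Ctrl and was at least 21.4-fold lower. Ighv14-2, chosen after its values were seen, had 2, 23 and 23. None of these passed edgeR's filter. DESeq2's Wald test called 2 of the 85 members to which it gave an adjusted p, beside 0.173% of all genes with one. These were Ighv3-6 (adjusted p = 0.00420) and Igkv6-25 (adjusted p = 0.0372). With all genes that have any count, edgeR gave them an adjusted p of 0.181 and 0.355. Igkv6-25 shares 45.6% of its 50-base words with other annotated genes and Ighv3-6 shares 2.91%.

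The number of V genes with reads did not order the groups either. There were 23, 31 and 33 heavy V genes in Ctrl and 21, 33 and 14 in DTR, and 17, 29 and 24 kappa V genes in Ctrl and 22, 37 and 12 in DTR. Scaled down to the 360 heavy V reads of the shallowest library, 23.0, 29.3 and 24.7 heavy V genes would be seen in Ctrl and 20.1, 27.3 and 12.6 in DTR. At 510 kappa V reads the numbers were 17.0, 28.3 and 21.8 in Ctrl and 20.1, 29.7 and 11.8 in DTR. DTR 3 had the fewest V genes at equal depth in both loci.

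Markers of the B lineage were then set beside the immunoglobulin reads. The list of plasma cell genes other than immunoglobulins had 16 genes, of which 14 entered the test and 0 passed the adjusted threshold of 0.05. At an unadjusted p under 0.05, 1 was higher (Eaf2) and 1 lower (Creld2), beside 7.92% of all tested genes in either direction. The median log2 fold change was 0.14 with 7 genes above and 7 below 0, and it was -0.02 for the same genes without Ctrl 2. Mzb1, an endoplasmic reticulum protein of antibody-secreting cells, had 3, 5 and 104 reads in Ctrl and 68, 77 and 22 in DTR. It was low in Ctrl 1 and 2, as Igha and Jchain were. Its log2 fold change of 0.43 (SE 1.07) turned to -0.10 without Ctrl 1 and -0.06 without Ctrl 2 and was 3.42 without Ctrl 3.

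Tnfrsf17, which encodes the plasma cell receptor BCMA, had only 6, 7 and 25 reads in Ctrl and 16, 6 and 0 in DTR. Prdm1, the transcription factor BLIMP1 of plasma cell differentiation, had 7, 46 and 92 reads in Ctrl and 76, 60 and 92 in DTR. Pou2af1, a B lineage transcriptional coactivator, had 5, 20 and 26 reads in Ctrl and 39, 88 and 15 in DTR. Derl3, an endoplasmic reticulum degradation factor, had 6, 1 and 6 reads in Ctrl and 9, 11 and 16 in DTR. The groups overlapped for Tnfrsf17, Prdm1 and Pou2af1, whereas Derl3 was higher in each DTR library, as were 7.18% of all tested genes. Derl3 was at 0.166 ± 0.109 CPM (SD, n = 3) in Ctrl against 0.446 ± 0.239 CPM (SD, n = 3) in DTR, with too few reads for edgeR's filter. Sdc1, with 425 to 973 reads in Ctrl and 413 to 857 in DTR, and Xbp1, with 1373 to 2131 and 1549 to 2162, are also expressed outside the B lineage and did not follow the Igha reads.

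Irf4, a transcription factor that plasma cells need, held 132, 144 and 128 reads in Ctrl and 257, 167 and 347 in DTR, and its log2 fold change was 0.82 (SE 0.377, edgeR adjusted p = 0.630) and 0.28 without DTR 3. Tnfrsf13b, which encodes the receptor TACI, held 15, 17 and 11 reads in Ctrl and 37, 29 and 32 in DTR, which gave a log2 fold change of 1.00 (SE 0.47, edgeR adjusted p = 0.634). Eaf2 held 33, 13 and 21 reads in Ctrl and 63, 68 and 58 in DTR, which gave a log2 fold change of 1.32 (SE 0.453, edgeR adjusted p = 0.602). The groups did not overlap for Tnfrsf13b and Eaf2, as for 7.18% of all tested genes in this direction. Creld2 was at 62.7, 65.1 and 65.4 CPM in Ctrl and 60.9, 42.4 and 44.7 CPM in DTR, lower in every DTR library as for 6.35% of all tested genes, which gave a log2 fold change of -0.41 (SE 0.147, edgeR adjusted p = 0.602).

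**Figure D5:**
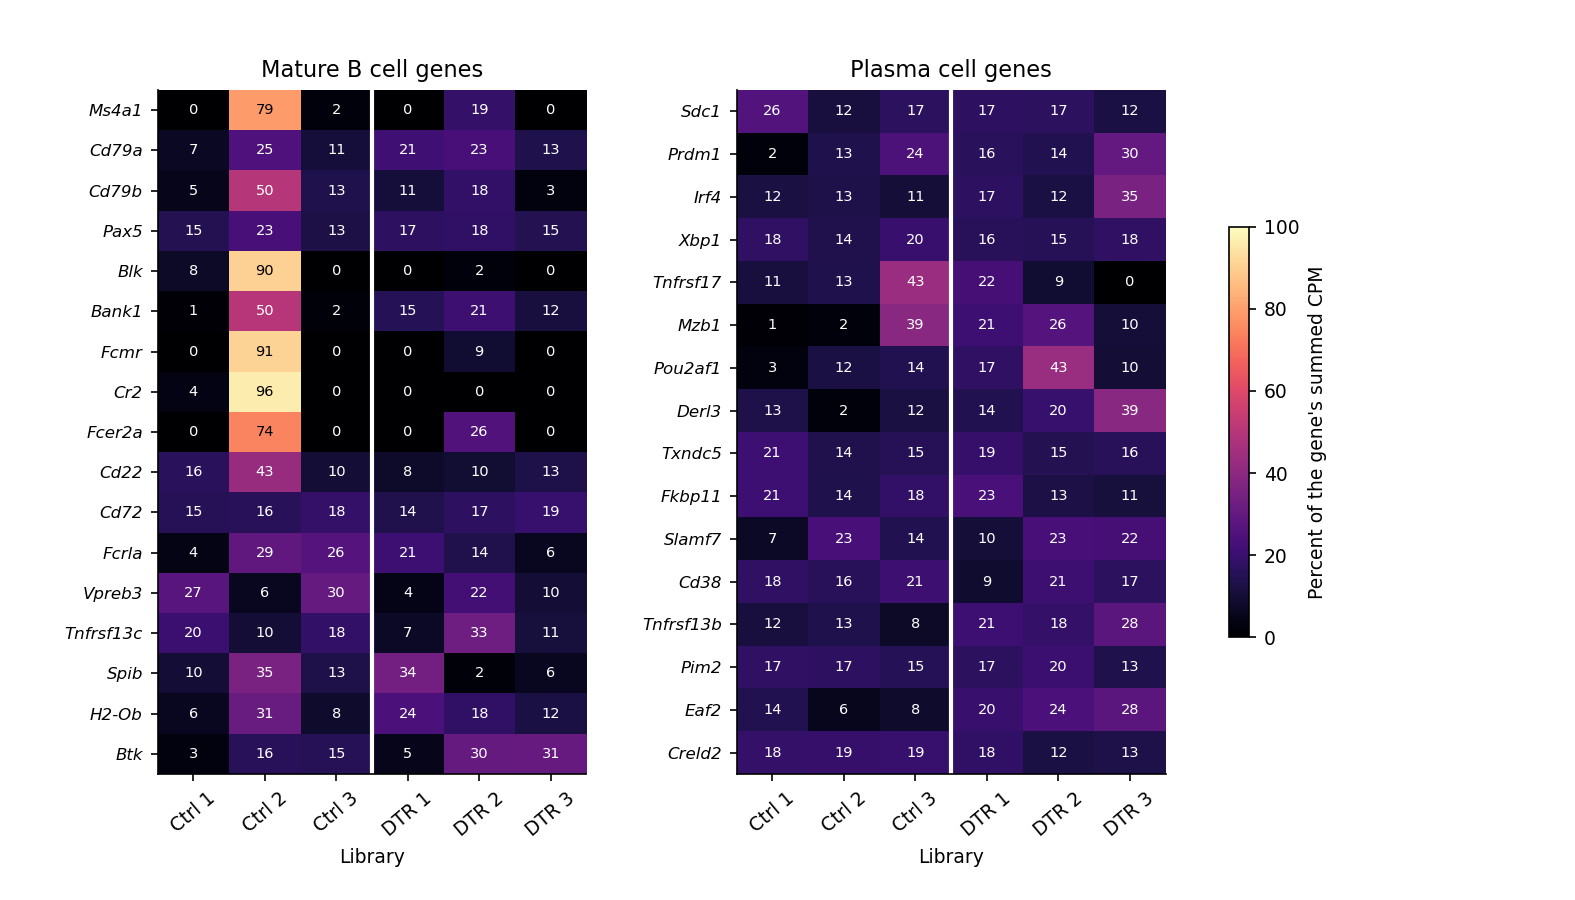
Percent of each gene's summed CPM (printed and coloured, 0 to 100) that lies in each of the 6 libraries, for 17 of the 18 mature B cell genes and the 16 plasma cell genes other than immunoglobulins. Most mature B cell genes have their highest value in Ctrl 2, and the plasma cell genes do not share that peak.

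The mature B cell list showed another distribution. Of its 18 genes 14 were highest in Ctrl 2 by CPM. So were 7 of the 9 T cell markers and 5 of the 8 macrophage markers, so this peak was not particular to mature B cell genes. Cr2, a complement receptor of mature B cells, had 54 reads in Ctrl 2, 2 in Ctrl 1 and 0 elsewhere. Ms4a1, which encodes CD20, had 31 reads in Ctrl 2, 9 in DTR 2, 1 in Ctrl 3 and 0 elsewhere, and Blk had 35 of its 39 reads in Ctrl 2. Cd79a, a signalling chain of the B cell receptor that plasma cells keep, held 8, 29 and 14 reads in Ctrl and 34, 33 and 14 in DTR, and its partner Cd79b held 2, 20 and 6 against 6, 9 and 1. Pax5, which plasma cells switch off, was at 93, 144 and 88 reads in Ctrl and 147, 139 and 82 in DTR, levels that did not follow those of Ms4a1. Of the 18 genes 9 entered the test, 0 passed the adjusted threshold, 0 had an unadjusted p under 0.05, and the median log2 fold change was -0.06, or 0.30 without Ctrl 2. In Ctrl 3 and the DTR libraries, Ms4a1 was thus between 0 and 9 reads, where Igha stood between 2509 and 6155.

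Of the 6 genes of B cell development 0 entered the test. Rag1 and Igll1 had 0 reads in all libraries, which allows up to 0.0875 to 0.134 CPM. Dntt, the polymerase that adds bases at V gene joints, had 6, 17 and 3 reads in Ctrl and 21, 2 and 3 in DTR, Rag2 had 10, 4 and 6 against 0, 10 and 1, and Vpreb1 had 0, 0 and 0 against 5, 0 and 7, so the groups overlapped for each. Of the 10 immunoglobulin receptor genes, 7 were tested with a median log2 fold change of -0.20 (0.06 without Ctrl 2) and 0 with an unadjusted p under 0.05. Pigr, the transporter of polymeric IgA and IgM across epithelium, had 4 reads in Ctrl 2 and 0 elsewhere. Of 6 factors that sustain or attract B lineage cells, 4 were tested, 0 of them under 0.05 before adjustment, with a median log2 fold change of 0.45 (0.34 without Ctrl 2). Il6 had 605, 127 and 243 reads in Ctrl and 699, 279 and 959 in DTR, Cxcl12 had 762, 507 and 854 against 953, 586 and 1275, and Tnfsf13b, which encodes BAFF, had 38, 32 and 32 against 76, 45 and 53. Cxcl13 had 134, 28 and 244 reads in Ctrl and 202, 45 and 195 in DTR, and Tnfsf13 was listed at 0. Ccl28, a chemokine that attracts IgA plasma cells, had 0, 1 and 0 reads in Ctrl and 7, 3 and 3 in DTR. It was the gene of these 6 whose groups did not overlap, where 7.18% of all tested genes were higher in this way. The counts of Ccl28 were too low for edgeR's filter. The leukocyte gene Ptprc, at 15.9, 47.7 and 28.0 CPM in Ctrl and 34.8, 30.3 and 37.3 CPM in DTR, was lowest in Ctrl 1, where the immunoglobulin sum was lowest, but highest in Ctrl 2, where that sum was the next lowest, and its part in the immunoglobulin values was not tested.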

How the data were processed

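RNA of PDPN+PDGFRα+ cells sorted from MO5 tumors was sequenced in 3 Ctrl and 3 DTR libraries. Per the labels and the study's methods, the authors made stranded libraries from total RNA, trimmed reads with cutadapt 3.4, aligned them to GRCm38 with STAR 2.7.3a and counted them per gene and strand with featureCounts 2.0.1. How reads with several alignments were counted is not given in the sources used here. The deposited raw counts are not normalized. The authors' normalized values, fold changes, p-values, dispersions and Cook's distances stand beside them and were not used.

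Totals per library ran from 22339635 to 34271929 counts. Genes were filtered with filterByExpr (minimum count 10, minimum total 15), scaled with TMM factors and tested with edgeR 4.0.16's two-sided quasi-likelihood test in R 4.3.3, without covariates, with Benjamini-Hochberg adjustment and a threshold of 0.05. Levels are CPM of the library total, and levels compared between genes are per kilobase of GENCODE M21 exon. Exon lengths and sequences thus come from another annotation release than the counts, whose Ensembl release the study's text gives in 2 ways. All 146 genes matched that annotation, 135 as V genes and 10 as constant genes. Shares carry exact Clopper-Pearson 95% intervals, and single genes were also compared by an exact permutation test, two-sided, on log2(CPM + 0.5). Sequence overlap is the share of 50-base words of a gene's transcripts found in the transcripts of any other annotated gene. V gene numbers at equal depth were computed by rarefaction. The edgeR and DESeq2 fits were tested on simulated counts with the same dispersion for every gene, unlike the uneven spread of the immunoglobulin genes.

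The members and lists were chosen with earlier results of these data known. Named are all constant genes and Jchain, the 5 most read V genes per locus, the leading V gene of each library, the tested genes with the lowest and highest fold change, those called by either tool, genes of the lists under the threshold and a fixed set of B lineage and niche genes. Other named genes, among them Ighv14-2, Igkv14-111, Cr2, Blk, Eaf2, Creld2 and Tnfrsf13b, were chosen after their values were seen. Alternatives were RLE size factors, library size alone, all genes with any count, only genes whose count reached 10 in every library, DESeq2 1.42.0's Wald test, the replicate number as a block, each replicate left out, summed classes without their most read gene or without pseudogenes (of which there were 0 with reads), shares per kilobase, V genes grouped by subgroup and, added after seeing the data, TMM factors for summed CPM. Some genes of the lists are not reported here.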

Additional observations from a re-analysis of the deposited data

Results flagged for a closer look

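Rows without a name in the deposited table were left out of the report, and 133 of them have an immunoglobulin name in GENCODE M21. Of these 6 had reads, 96 in all, and 3 exceeded 3 reads in a DTR library while exceeding every Ctrl library. The heavy V pseudogene Ighv1-83 had 57 reads in DTR 2, against 0, 10 and 0 in Ctrl and 2 and 10 in the other DTR libraries. Ighv1-38 had 7 reads and Ighv1-30 had 6 reads, all in DTR 2. The groups overlapped for each of the 3.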

How the results depend on the processing

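Each of the 11 fixed gene lists had 0 genes with an adjusted p under 0.05 under every alternative. For the 6 genes of B cell development 0 entered the main test, so that count was fixed in the main fit. The count of called immunoglobulin genes was 0 in all alternatives except DESeq2's Wald test, which called 2. Log2 fold changes are given as in the report. The median of the immunoglobulin genes tested in each fit, which numbered 42 to 58 with a replicate left out, ran from 0.30 to 1.55. The log2 ratio of summed CPM ran from -0.036 to 1.46 for heavy V genes, from 0.65 to 1.78 for Jchain and from 1.78 to 3.04 for lambda V genes, and that of lambda constant genes fell to -0.55 without Iglc1. With a replicate left out, 10 of the 28 tested immunoglobulin genes changed sign, among them Ighm (-0.10 to 0.73), Ighg2c (-0.13 to 2.03) and Ighv1-81 (-0.51 to 1.57), the others being Ighv1-15, Ighv1-26, Ighv1-64, Ighv1-85, Ighv5-6, Igkv1-135 and Igkv6-23, and so did Mzb1 (-0.10 to 3.42). That of Ighv1-81, close to 0, was also 0.0091 with RLE factors, 0.00068 with at least 10 counts in every library and 0.014 in DESeq2. Per kilobase the mean Igha share in DTR was 65.6%. Grouped by subgroup, the leading subgroup held 75.9% of heavy V reads in Ctrl and 66.2% in DTR, and 48.7% and 47.7% of kappa V reads, because a subgroup holds many genes. For Ighv1, the leading heavy V subgroup, the groups did not overlap, at 75.3% to 76.7% in Ctrl and at most 72.2% in DTR, a split chosen after its values were seen and not tested. For the other changes the cause was not tested. The kappa share could not be taken from constant genes, as Igkc was at 0. Same-numbered Ctrl and DTR libraries deviated together with r = 0.114, 0.132 and -0.0425, so the numbers were not taken to pair the libraries. With the replicate number as a block, 0 immunoglobulin genes were called, their median log2 fold change was 0.84 and that of Ighv1-81 was 0.65. Of the 146 genes, 118 did not pass edgeR's filter, by few reads or by reads in few libraries, and 12 had 1 read in all.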
